A study of Homo sapiens with 4 samples.

Results

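The MYC, MAX and MXD network was represented here by 9 genes of 43622 in the deposited table: MYC, MYCL, MAX, MXD1, MXD3, MXD4, MXI1, MNT and MLX. The genes were listed by name as members of this family of transcription factors, with earlier results of these data known. RNA-seq was performed on PC3, an established human prostate cancer cell line, to find which responses to MLN4924 depend on p14ARF. MLN4924 inhibits the enzyme that activates NEDD8 and so keeps cullin-RING ubiquitin ligases inactive. Expression was given as TPM, read counts divided by transcript length and scaled to a fixed total per library. Levels of different genes can thus be compared.

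The conditions were vehicle-treated PC3 cells (Ctrl), the same cells given 1 µM MLN4924 (MLN), PC3 cells carrying a short hairpin RNA against p14ARF with vehicle (shARF), and the same hairpin cells with 1 µM MLN4924 (Both), all collected at day 3. Each condition had 3 libraries, 12 in all. The hairpin was introduced stably by a retrovirus with hygromycin selection, and no control hairpin is named for Ctrl and MLN, so that hairpin, virus and selection cannot be told apart. The series text calls the hairpin cells a knockout and gives a millimolar dose, while the sample labels give an shRNA and a micromolar dose; the labels were followed. No source says whether the libraries came from separate cultures, so p-values measure only the spread between these libraries, which may be technical.

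MYC and MYCL are basic helix-loop-helix leucine zipper proteins that bind DNA only as dimers with MAX, at the E-box CACGTG, and activate genes of growth, ribosome production and metabolism. The MXD proteins, MXI1 and MNT compete for MAX and repress through SIN3 corepressors, and MXD proteins are classically raised when cells stop dividing and differentiate. MLX is the MAX-like partner of the glucose-sensing factors MondoA and ChREBP, and it also binds MNT and some MXD proteins. MYC protein is short-lived and is removed by ubiquitin ligases, some of them of the cullin-RING class. The present values are of RNA and carry nothing on protein.

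CDKN2A, the gene of p14ARF and p16INK4a, had 177 to 190 TPM for Ctrl, 100 to 133 for MLN, 58.2 to 60.9 for shARF and 41.2 to 54.0 for Both, so the hairpin libraries were lower than the others without overlap. The epithelial keratin and EPCAM markers summed to 892 to 985 TPM for Ctrl, 428 to 490 for MLN, 1118 to 1259 for shARF and 426 to 442 for Both. KRT18 and EPCAM were, like the sum, lower in MLN and higher in shARF than in Ctrl. KRT19 had mean levels of 562, 189, 535 and 207 TPM in Ctrl, MLN, shARF and Both, and KRT8 had 90.6, 93.1, 145 and 80.2. KRT8 was not called in MLN vs Ctrl (limma adjusted p = 0.746), nor KRT19 in shARF vs Ctrl (limma adjusted p = 0.369). PTPRC, CD3E, PECAM1 and COL1A2, markers of leukocytes, endothelium and stroma, summed to 17.7 to 19.6 TPM for Ctrl, 2.14 to 2.46 for MLN, 51.2 to 61.1 for shARF and 4.65 to 4.86 for Both. PTPRC reached at most 0.322 TPM and CD3E at most 0.0558 in any library, and the sum was carried by PECAM1 and COL1A2, which moved differently. PECAM1 had mean levels of 11.7, 0.579, 1.91 and 0.173 TPM in Ctrl, MLN, shARF and Both, lower with the hairpin. COL1A2 had 6.73, 1.47, 54.5 and 4.26 TPM and alone among these 4 genes followed the order of conditions of MYC below. The part of these marker lists in the results was not tested.

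The E-box is the element the network reads, so members and outputs that hold it near their start sites are shown. Promoters of RefSeq (GRCh38.p14, 250 bases before to 50 after the start site) were found for 8 of the 9 members, all but MYC. CACGTG, which reads the same on both strands, stood in 3 of the 11 promoters of these genes and in 2548 of 35116 promoters overall (7.26%). The windows below are read 5′ to 3′ on the gene's strand, with the motif in capitals. The repressor genes MXD4 (chr4:2262330-2262359, minus strand, 238 bases before the start site) and MNT (chr17:2401236-2401265, minus strand, 193 bases before) carried it, as did MLX (chr17:42567038-42567067, plus strand, 50 bases before).
MXD4: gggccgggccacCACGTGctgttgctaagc
MNT: ccctgcccgggcCACGTGtgcgcgcgccgg
MLX: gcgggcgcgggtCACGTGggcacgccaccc
Among output genes, ODC1, the classical MYC target for polyamine synthesis, held it 29 bases before its start site (chr2:10448024-10448053, minus strand), and ARRDC4, a MondoA and MLX target, 210 bases before (chr15:97960481-97960510, plus strand).
ODC1: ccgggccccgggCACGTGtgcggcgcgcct
ARRDC4: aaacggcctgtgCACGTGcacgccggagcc
TXNIP, the other MondoA and MLX target, held no CACGTG but a repeat of CACGAG with 5 bases between (chr1:145996645-145996673, minus strand, 88 bases before), a spacing found in 2 of 35116 promoters.
TXNIP: gatgtgCACGAGggcagCACGAGcctccg
A match is a description of letters and says nothing of binding in these cells.

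All 9 members passed the filter of a mean of 0.1 TPM that left 19932 genes for the tests. MYC, the repressor MXD1 and their shared partner MAX are described first, then the other members by role.

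MYC had 803, 713 and 703 TPM in Ctrl and 141, 155 and 164 TPM in MLN. It had 1171, 1158 and 1220 TPM in shARF and 269, 272 and 249 TPM in Both. No pair of conditions overlapped, and the order from low to high was MLN, Both, Ctrl, shARF. In PC3 cells MYC fell 4.82-fold with MLN4924, from 740 ± 55.1 to 153 ± 11.5 TPM (SD, n = 3), a log2 fold change of −2.27 (SE 0.082, 95% interval −2.47 to −2.07, limma adjusted p = 8.72e-06). In hairpin cells it fell 4.49-fold, from 1183 ± 32.5 to 264 ± 12.3 TPM, a log2 fold change of −2.17 (SE 0.053, limma adjusted p = 2.18e-06). MYC was 1.60-fold higher in shARF than in Ctrl (log2 0.68, SE 0.065, limma adjusted p = 0.00117) and 1.72-fold higher in Both than in MLN (log2 0.78, SE 0.073, limma adjusted p = 0.00132). The response to MLN4924 differed between the hairpin and the other cells by a log2 of 0.10, with an interval of −0.12 to 0.33 (limma adjusted p = 0.505). The mean level ranked MYC at place 150 of 19932 genes for Ctrl, 1144 for MLN, 88 for shARF and 594 for Both. In bulk RNA, fewer cells with the transcript and less of it per cell cannot be told apart. The cycling markers MKI67 and TOP2A, summed, were 72.2 to 81.1 TPM for Ctrl, 44.3 to 49.6 for MLN, 114 to 130 for shARF and 55.5 to 66.0 for Both, the same order as MYC; their part in the result was not tested.

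MXD1 (chr2:69897688-69942945 of GRCh38, plus strand), a repressor that competes with MYC for MAX, went the other way. Its libraries had 7.18, 7.63 and 7.77 TPM in Ctrl and 42.8, 42.8 and 44.9 TPM in MLN. Those of the hairpin cells had 7.83, 8.34 and 8.40 TPM in shARF and 56.5, 61.8 and 52.4 TPM in Both. Vehicle and MLN4924 libraries were far apart in both kinds of cell, and Both lay above MLN without overlap. MXD1 rose 5.78-fold with MLN4924 in PC3 cells (log2 2.52, SE 0.054, limma adjusted p = 2.15e-06) and 6.95-fold in hairpin cells (log2 2.78, SE 0.072, limma adjusted p = 2.56e-06). It was 1.31-fold higher in Both than in MLN (limma adjusted p = 0.0104). Between the vehicle conditions the log2 difference was 0.12 (95% interval −0.02 to 0.26, limma adjusted p = 0.154), although the libraries did not overlap. The difference between the responses, a log2 of 0.26, had a limma adjusted p of 0.0623; it was 0.0227 without Both replicate 4 and 0.0486 without Ctrl replicate 1.

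MAX (chr14:65006174-65102695, minus strand), the partner that both MYC and the repressors need, changed less. It had 117, 109 and 104 TPM in Ctrl and 157, 147 and 175 TPM in MLN. It had 105, 102 and 112 TPM in shARF and 124, 123 and 115 TPM in Both. MLN was thus the highest condition, with no library shared with another. MAX rose with MLN4924 by a log2 of 0.54 in PC3 cells (SE 0.078, limma adjusted p = 0.00147). In hairpin cells the log2 difference was 0.18 (limma adjusted p = 0.0217), and the call was lost, at adjusted p between 0.0635 and 0.0732, without Both replicate 2, Both replicate 3, shARF replicate 1 or shARF replicate 3. The responses differed by −0.35 on the log2 scale (SE 0.098, limma adjusted p = 0.0176). MAX was lower in Both than in MLN by a log2 of −0.40 (limma adjusted p = 0.011), and shARF and Ctrl differed by −0.05 (95% interval −0.19 to 0.09, limma adjusted p = 0.511). The exons of MAX overlap those of FNTB, a farnesyltransferase gene on the opposite strand, over 13.1% of their length, and the strandedness of the libraries is not given in the sources used here; FNTB went down with MLN4924, from 48.5 to 15.3 TPM in PC3 cells.

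**Figure D1:**
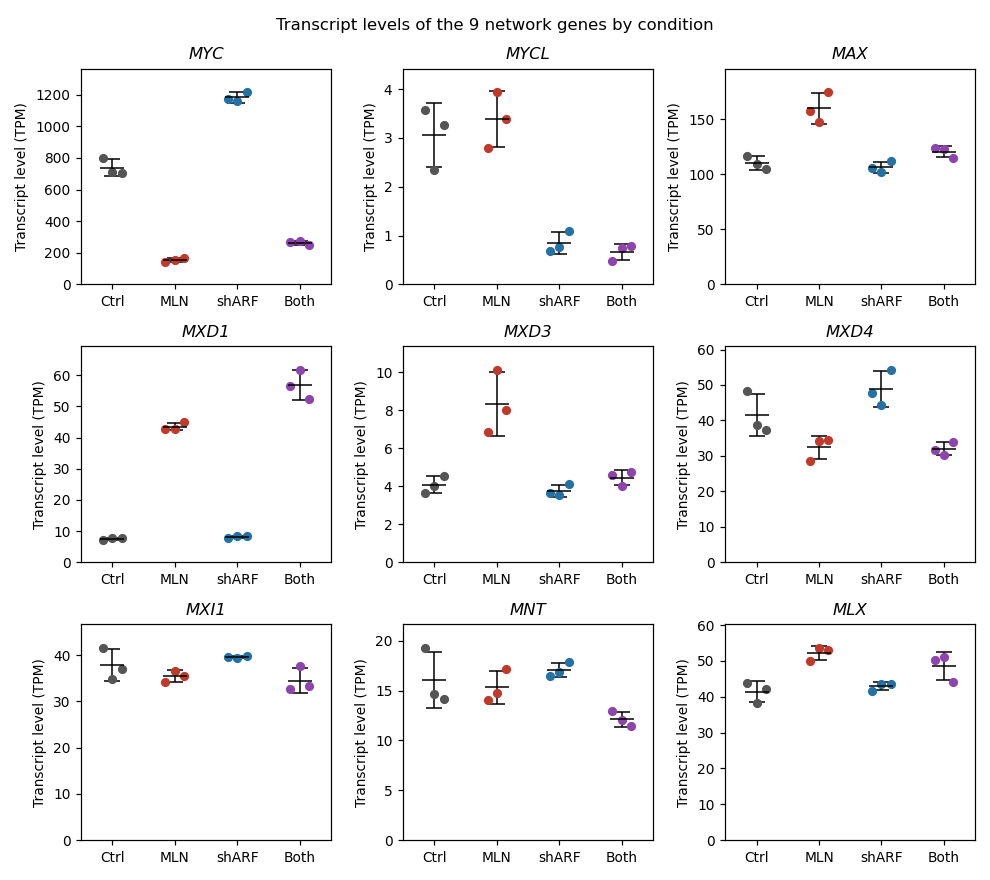
TPM (linear axis from 0, scaled per gene) of the 9 genes in the 4 conditions; points are libraries, and the bars give the mean and SD of 3 libraries. MYC was lowest in MLN (153 TPM) and highest in shARF (1183 TPM), MXD1 was high in MLN and Both only (43.5 and 56.9 TPM), and MYCL was low in the hairpin cells.

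MYCL (chr1:39895428-39902256, minus strand), a paralogue of MYC, was a low transcript that followed the hairpin and not the inhibitor. It had 3.58, 2.33 and 3.27 TPM in Ctrl and 2.80, 3.95 and 3.40 TPM in MLN. It had 0.684, 0.767 and 1.10 TPM in shARF and 0.473, 0.750 and 0.779 TPM in Both. Hairpin and other libraries did not overlap, while MLN4924 and vehicle libraries did in both kinds of cell. MYCL was 3.60-fold lower in shARF than in Ctrl (log2 −1.74, SE 0.25, limma adjusted p = 0.0042) and 5.07-fold lower in Both than in MLN (log2 −2.19, SE 0.23, limma adjusted p = 0.00187). With MLN4924 it differed by a log2 of 0.15 in PC3 cells (95% interval −0.36 to 0.66, limma adjusted p = 0.568) and by −0.31 in hairpin cells (limma adjusted p = 0.356). A pseudocount of 0.1 TPM was added before the logarithm, which understates the change of so low a gene.

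MXD3 (chr5:177301461-177312757, minus strand), a repressor expressed in dividing cells, had 3.67, 4.03 and 4.57 TPM in Ctrl and 6.84, 10.2 and 8.05 TPM in MLN. It had 3.66, 3.53 and 4.13 TPM in shARF and 4.59, 4.01 and 4.76 TPM in Both. MLN stood alone, with shARF and Both overlapping. MXD3 rose with MLN4924 by a log2 of 1.00 in PC3 cells (SE 0.17, limma adjusted p = 0.00266), and in hairpin cells the difference was 0.23 (limma adjusted p = 0.117). The responses differed by −0.77 (SE 0.21, limma adjusted p = 0.015), and Both was below MLN by −0.88 (limma adjusted p = 0.0106). The MXD3 exons overlap those of RAB24 on the same strand over 19.5% of their length and those of PRELID1 on the opposite strand over 24.2%. RAB24, a small GTPase, had mean levels of 40.0, 71.7, 41.3 and 52.2 TPM in Ctrl, MLN, shARF and Both, an order shared with MXD3 except for the lowest conditions, and its responses differed by −0.50 (limma adjusted p = 0.00392). PRELID1 was far above MXD3, at mean levels of 484, 463, 564 and 444 TPM in Ctrl, MLN, shARF and Both. How reads of the shared exons were assigned is not given, and the part of RAB24 and PRELID1 in the MXD3 values was not tested.

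MXD4 (chr4:2247432-2262109, minus strand), a repressor with an E-box window shown above, had 48.3, 38.8 and 37.4 TPM in Ctrl and 28.6, 34.1 and 34.5 TPM in MLN. It had 47.8, 44.3 and 54.3 TPM in shARF and 31.7, 30.4 and 34.0 TPM in Both. It was lower with MLN4924 in both kinds of cell, without overlap. The log2 difference was −0.60 in hairpin cells (limma adjusted p = 0.00145) and −0.35 in PC3 cells (limma adjusted p = 0.0472). The latter call was lost whichever of the 6 libraries was left out, with adjusted p between 0.0507 and 0.136.

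MXI1 (chr10:110207605-110287365, plus strand), the repressor also called MXD2, had 41.6, 34.9 and 37.0 TPM in Ctrl and 34.2, 36.7 and 35.5 TPM in MLN, which overlapped. It had 39.6, 39.4 and 39.9 TPM in shARF and 32.7, 37.6 and 33.3 TPM in Both, which did not. The log2 difference was −0.09 in PC3 cells (95% interval −0.27 to 0.09, limma adjusted p = 0.338) and −0.20 in hairpin cells (limma adjusted p = 0.0296). The call in hairpin cells was lost without Both replicate 2 or 4 or without any shARF library, at adjusted p between 0.074 and 0.0867, and by median-of-ratios scaling, at 0.118.

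MNT (chr17:2384073-2401104, minus strand), the constitutive partner of MAX among the repressors, had 19.3, 14.6 and 14.2 TPM in Ctrl and 14.03, 14.80 and 17.21 TPM in MLN. It had 16.4, 16.9 and 17.8 TPM in shARF and 12.92, 12.01 and 11.45 TPM in Both. Both was below every other condition, and Ctrl and MLN overlapped. MNT fell with MLN4924 in hairpin cells by 0.49 on the log2 scale (limma adjusted p = 0.00102), and in PC3 cells the difference was −0.06 (limma adjusted p = 0.763). The difference between these responses, −0.43, had a limma adjusted p of 0.0655, and of 0.0497 without MLN replicate 1 and 0.00663 without Ctrl replicate 1. Both was below MLN by −0.33 (limma adjusted p = 0.0439), a call lost without MLN replicate 2 or 5 or without any Both library, at adjusted p between 0.0742 and 0.116, and by median-of-ratios scaling, at 0.078. In shARF vs Ctrl the log2 difference was 0.10 (limma adjusted p = 0.585); without Ctrl replicate 1 it was 0.24 (adjusted p = 0.0242), and MXI1 then also passed, at 0.14 (adjusted p = 0.0362).

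MLX (chr17:42567072-42573239, plus strand) had 43.9, 38.2 and 42.1 TPM in Ctrl and 50.1, 53.7 and 52.9 TPM in MLN. It had 41.7, 43.6 and 43.6 TPM in shARF and 50.3, 51.2 and 44.2 TPM in Both. Libraries with MLN4924 lay above those with vehicle, by a narrow margin in hairpin cells. MLX rose by a log2 of 0.34 in PC3 cells (limma adjusted p = 0.00491). In hairpin cells the difference was 0.17 (limma adjusted p = 0.0597), which passed without Both replicate 4 (adjusted p = 0.00431) and by median-of-ratios scaling (0.00547). Over 18.2% of their length the MLX exons overlap PSMC3IP on the opposite strand, a recombination factor whose level was 7.52 TPM for Ctrl, 49.9 for MLN, 18.9 for shARF and 58.6 for Both; its part in the MLX values was not tested.

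Counted over the 9 members, 6 passed the test in MLN vs Ctrl (4 higher, 2 lower), beside 61.6% of all genes tested (32.2% higher, 29.4% lower). In Both vs shARF 6 passed (2 higher, 4 lower), beside 61.0% of all genes (28.3% higher, 32.8% lower). Under median-of-ratios scaling 7 members did, 4 of them higher, as MXD3 and MLX entered and MXI1 left. That scaling gave 6415 higher and 5935 lower over all genes. The shares of members called are near those of all genes and are not a result about the network. The size of the changes was less common: MXD1 rose and MYC fell by more than 2 on the log2 scale in both comparisons. Such rises were seen in 6.15% and 5.58% of all genes in MLN vs Ctrl and Both vs shARF, and such falls in 3.29% and 3.61%. In shARF vs Ctrl 2 members passed, MYC higher and MYCL lower, beside 41.4% of all genes (21.0% higher, 20.4% lower). In Both vs MLN 6 passed (2 higher, 4 lower), beside 32.4% of all genes (11.8% higher, 20.6% lower). The median over all genes was −0.08 there. Median-of-ratios scaling, which moved that median to 0.00, left 2 members higher and 3 lower, beside 3662 higher and 3462 lower of all genes. MYCL was the member beyond −2 in that comparison, beside 1.80% of all genes. The interaction was called for 2 members, MAX and MXD3, both negative, beside 28.3% of all genes (11.2% positive, 17.1% negative). Median-of-ratios scaling added MXD1, positive, beside 3215 positive and 2786 negative calls over all genes. Libraries did not overlap for 6 members in MLN vs Ctrl, 7 in Both vs shARF, 3 in shARF vs Ctrl and 6 in Both vs MLN, beside 67.0%, 67.1%, 53.1% and 47.7% of all genes. MLN vs Ctrl and Both vs MLN share the MLN libraries, Both vs shARF and shARF vs Ctrl the shARF libraries, MLN vs Ctrl and shARF vs Ctrl the Ctrl libraries, and Both vs shARF and Both vs MLN the Both libraries.

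**Figure D2:**
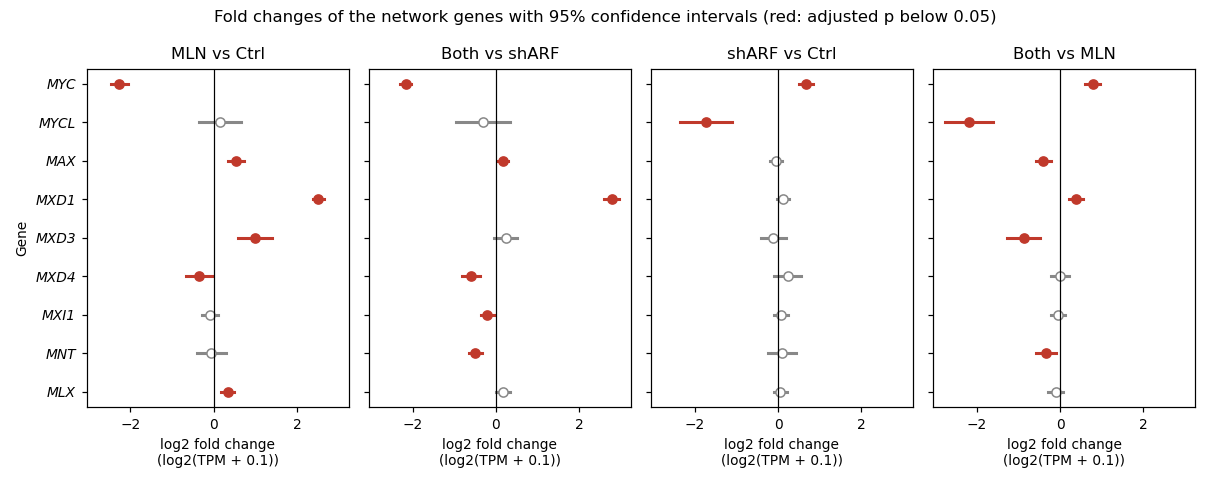
Log2 fold changes (x axis) of the 9 genes in the pairwise comparisons, with 95% confidence intervals from limma. Red marks an adjusted p below 0.05. MYC (−2.27 and −2.17) and MXD1 (2.52 and 2.78) are the only members beyond 2 on the log2 scale with MLN4924.

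The order of levels within the network changed with MLN4924. In Ctrl it ran MYC, MAX, MXD4, MLX, MXI1, MNT, MXD1, MXD3 and MYCL, where MXD4 overlapped MLX and MLX overlapped MXI1. In MLN, MAX (160 ± 13.9 TPM) and MYC overlapped at the top, and MXD1 came after MLX, ahead of MXI1, MXD4 and MNT. In shARF the order was that of Ctrl with no neighbours overlapping. In Both, MYC and MAX led and MXD1 (56.9 ± 4.74 TPM) came next, above MLX.

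The summed TPM of MXD1, MXD3, MXD4, MXI1 and MNT was 107 ± 11.3 for Ctrl, 135 ± 7.45 for MLN, 117 ± 6.34 for shARF and 140 ± 5.14 for Both. Its ratio to the sum of MYC and MYCL was 0.144 ± 0.00461 for Ctrl, 0.863 ± 0.0215 for MLN, 0.0991 ± 0.0026 for shARF and 0.530 ± 0.0150 for Both. The libraries of the conditions did not overlap in this ratio, which was highest in MLN and lowest in shARF. MXD1 made up 7.11% of the repressor sum in Ctrl and 6.99% in shARF, against 32.3% in MLN and 40.6% in Both. MYC exceeded MAX 6.71-fold in Ctrl, 11.1-fold in shARF and 2.19-fold in Both, and in MLN the ratio was 0.962 ± 0.0814. These are ratios of RNA, given as a description with no test.

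**Figure D3:**
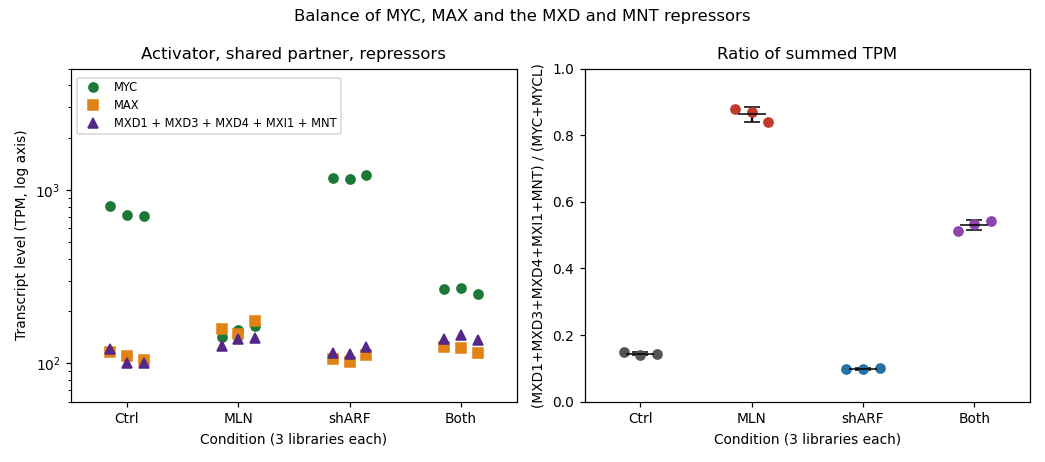
Left, TPM on a log axis of MYC, MAX and the summed repressors (MXD1, MXD3, MXD4, MXI1, MNT) per library; right, the ratio of summed repressors to MYC plus MYCL, with mean and SD of 3 libraries. The ratio was 0.144 for Ctrl, 0.863 for MLN, 0.0991 for shARF and 0.530 for Both.

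Outputs of the network were followed in lists written from general knowledge. Of 25 genes that MYC activates, 16 fell and 2 rose in MLN vs Ctrl, with a median log2 fold change of −0.33 against 0.05 over all genes. In Both vs shARF 19 fell and 3 rose, with a median of −0.72 against −0.04. In shARF vs Ctrl 20 rose and 2 fell (median 0.49 against 0). The numbers called, 18, 22 and 22 of 25, stand beside 61.6%, 61.0% and 41.4% of all genes. NPM1, a nucleolar chaperone of ribosome production, had 1501 TPM for Ctrl, 768 for MLN, 1800 for shARF and 798 for Both, and fell by a log2 of 0.97 in MLN vs Ctrl and of 1.18 in Both vs shARF (limma adjusted p = 7.48e-05 and 8.86e-05). NCL, nucleolin, fell by 0.73 and 1.34 (limma adjusted p = 8.67e-05 and 1.15e-05), and the responses differed by −0.62 (limma adjusted p = 0.000222). CAD, which starts pyrimidine synthesis, fell by 0.32 and 0.27 (limma adjusted p = 0.0393 and 0.0121). ODC1, whose E-box is printed above, was not called in any comparison, at mean levels of 572 to 618 TPM. TERT, the telomerase catalytic subunit, was chosen for mention after its values were seen, since it went against the list: it rose by a log2 of 1.44 and 2.95 (limma adjusted p = 0.00025 and 1.77e-05). CACGTG stood in 12 of the 27 promoters found for 21 of the 25 genes.

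In Both vs MLN, the same list had 5 genes higher and 1 lower, beside 11.8% and 20.6% of all genes, with a median of 0.23 against −0.08. The count moved with single libraries, falling to 2 without MLN replicate 2 or without Both replicate 2. With median-of-ratios scaling it was 12 higher and 0 lower. All genes called moved too, from 2352 higher and 4112 lower to 3662 higher and 3462 lower.

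Among 7 genes that MYC represses, 2 rose and 2 fell in MLN vs Ctrl, and 2 rose and 3 fell in Both vs shARF. These 4 and 5 calls stand beside 61.6% and 61.0% of all genes, and the medians were 0.30 and −0.55 against 0.05 and −0.04. In shARF vs Ctrl 2 were higher and 2 lower, beside 41.4% of all genes called, with a median of −0.28 against 0. CDKN1A, the cyclin-dependent kinase inhibitor p21, had 113 TPM for Ctrl, 344 for MLN, 12.2 for shARF and 202 for Both. It rose by a log2 of 1.60 and 4.04 in MLN vs Ctrl and Both vs shARF (limma adjusted p = 8.13e-05 and 1.5e-06), and was lower in shARF than in Ctrl by −3.20 (limma adjusted p = 3.48e-05). GADD45A, a stress-response gene of growth arrest, rose by 2.28 and 1.34 (limma adjusted p = 7.66e-06 and 3.38e-05). Unlike CDKN1A, GADD45A was higher in shARF than in Ctrl, by 0.31 (limma adjusted p = 0.00543). CDKN2B, the p15 inhibitor, and NDRG1, a differentiation and stress gene, went the other way: CDKN2B fell by 1.38 and 1.03, and NDRG1 fell by 1.61 and 1.56.

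Of the 17 MYC cofactors 16 were tested, all but KAT2A, which did not reach the filter. In MLN vs Ctrl 3 rose and 6 fell, in Both vs shARF 2 rose and 9 fell, and in shARF vs Ctrl 10 rose and 1 fell. The medians were 0.00, −0.26 and 0.30, against 0.05, −0.04 and 0 over all genes, and the numbers called, 9, 11 and 11 of 16, stand beside 61.6%, 61.0% and 41.4% of all genes. TRRAP, the scaffold of histone acetyltransferase complexes, fell by 0.97 and 0.79 with MLN4924 (limma adjusted p = 0.000169 and 0.000534), and RUVBL1, an ATPase of the same complexes, by 1.09 and 1.13. ZBTB17, which recruits MYC to repressed promoters as MIZ1, rose by 0.45 and 0.68 (limma adjusted p = 0.00676 and 0.0012). WDR5 fell by 0.34 and 0.52. Under median-of-ratios scaling the cofactors split 6 higher to 6 lower in MLN vs Ctrl and 4 to 8 in Both vs shARF. All genes called then split 6471 to 5973 and 6415 to 5935. In Both vs MLN 3 cofactors were higher and 3 lower, beside 32.4% of all genes called. There 3 were called without MLN replicate 2 or without Both replicate 2. With that scaling 8 were higher and 3 lower, beside 3662 and 3462 of all genes.

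The 15 genes of MYC protein turnover, ligases, deubiquitinases and kinases, gave 2 higher and 8 lower in MLN vs Ctrl, 1 and 10 in Both vs shARF, 6 and 2 in shARF vs Ctrl and 3 and 1 in Both vs MLN. The numbers called, 10, 11, 8 and 4 of 15, stand beside 61.6%, 61.0%, 41.4% and 32.4% of all genes, and the medians were −0.34, −0.34, 0.15 and 0.00 against 0.05, −0.04, 0 and −0.08. With median-of-ratios scaling the turnover counts became 2 and 7 in Both vs shARF, 5 and 3 in shARF vs Ctrl and 5 and 0 in Both vs MLN. All genes called were then 6415 higher and 5935 lower, 4261 and 4314, and 3662 and 3462, in the same order. Without Ctrl replicate 3 or shARF replicate 1 the count in shARF vs Ctrl was 5, and without MLN replicate 2 or 5 or Both replicate 2 that in Both vs MLN was 2. AURKA, a mitotic kinase that shields MYC proteins from degradation, fell by 1.11 and 1.44 (limma adjusted p = 6.79e-05 and 6.52e-06) with MLN4924. SKP2, a ligase subunit acting on MYC, fell by 0.34 and 0.60. FBXW7, the ligase subunit that reads phosphorylated MYC, and USP28, which opposes it, were not called with MLN4924 in either kind of cell.

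The other network genes numbered 6. MYCN, a MYC paralogue, was listed at 0 in every Ctrl and MLN library and at 0.183 to 0.665 TPM in shARF and 0.0561 to 0.175 TPM in Both. It passed the filter of a mean of 0.1 TPM only through the hairpin libraries, so its call in shARF vs Ctrl carries no weight. No fold is given against a group at 0. SIN3A, the corepressor scaffold of the MXD proteins, named after its values were seen, rose by 0.95 and 0.88 with MLN4924 (limma adjusted p = 8.63e-05 and 6.27e-05), to 30.4 TPM in MLN and 37.0 in Both. MGA, a large MAX partner, fell by 0.37 and 0.37 (limma adjusted p = 0.0051 and 0.02). MLXIP, which encodes MondoA, was higher in shARF than in Ctrl (log2 0.73, limma adjusted p = 0.0049), and its responses to MLN4924 differed by −0.59 (limma adjusted p = 0.0104). MLXIPL, which encodes ChREBP, was low, at mean levels of 0.336 to 0.839 TPM. It was higher in shARF than in Ctrl (log2 1.16, limma adjusted p = 0.0452). In Both it was lower than in shARF (log2 −0.83, limma adjusted p = 0.0182), and its responses differed by −1.68 (limma adjusted p = 0.0115). In all, 2 rose and 1 fell in MLN vs Ctrl, and 2 rose and 3 fell in Both vs shARF, where 3 were called without Both replicate 2 or 4. These 3 and 5 calls stand beside 61.6% and 61.0% of all genes, and the medians were 0.39 and −0.35 against 0.05 and −0.04. In shARF vs Ctrl 4 were called, all higher and MYCN among them, beside 41.4% of all genes. The median there was 0.54 against 0. In Both vs MLN 1 was called, beside 32.4% of all genes. By limma the count was 2 without MLN replicate 1, and 0 without MLN replicate 2, Both replicate 2 or Both replicate 3.

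The 2 MondoA and MLX targets were called in MLN vs Ctrl and in Both vs shARF, beside 61.6% and 61.0% of all genes. ARRDC4, an arrestin-domain protein, had 1.55 TPM for Ctrl, 5.20 for MLN, 11.5 for shARF and 23.5 for Both, rising by a log2 of 1.68 and 1.01 with MLN4924 (limma adjusted p = 0.000371 and 8.86e-05) and by 2.83 with the hairpin. TXNIP, an inhibitor of glucose uptake, had 162, 208, 302 and 234 TPM in the same order. It rose by 0.36 in PC3 cells and fell by 0.37 in hairpin cells, and the responses differed by −0.73 (limma adjusted p = 9.91e-05).

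Of 4 RNAs from the MYC locus 2 were tested. PVT1, a long noncoding RNA next to MYC, had 35.2 TPM for Ctrl, 40.5 for MLN, 53.1 for shARF and 60.1 for Both. With MLN4924 it rose by 0.20 and 0.18 while MYC fell (limma adjusted p = 0.0222 and 0.00988); the first of these calls was lost without MLN replicate 2, Ctrl replicate 2 or Ctrl replicate 3. With the hairpin it rose by 0.59 and 0.57, as MYC did. CASC11 was not called, PCAT1 did not reach the filter and CCAT1 was not analysed here.

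Patterns of other genes were set beside those of the members by Pearson's r of log2(TPM + 0.1) over the 12 libraries, which fall into 4 conditions, so that r is a description. Nearest to MYC were ABI3BP (r 0.998), SIDT1 (0.998) and ALDH18A1 (0.997), the latter an enzyme of proline synthesis. ABI3BP, an extracellular matrix protein, had 40.2 TPM for Ctrl, 3.53 for MLN, 82.5 for shARF and 7.58 for Both. Nearest to MXD1 were BBOX1-AS1 (0.999), MMP3 (0.999) and TEX50 (0.998). BBOX1-AS1 and TEX50 were at 0 TPM in every Ctrl and shARF library, so there only the pseudocount entered their r. In MLN and Both their mean levels were 14.5 and 27.5 TPM for BBOX1-AS1 and 9.17 and 16.5 TPM for TEX50. MMP3, a matrix metalloproteinase, had 0.895 TPM for Ctrl, 634 for MLN, 1.25 for shARF and 1210 for Both. RASSF1 (0.970), PRKRIP1 (0.966) and YPEL3 (0.962) were nearest to MXD3, and XKR8 (0.979), AKIRIN1 (0.978) and NRBP1 (0.974) to MAX.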

How the data were processed

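RNA-seq libraries of PC3 cells (4 conditions, 3 libraries each) were analysed. The authors trimmed reads, mapped them to hg38 and quantified genes on an Ensembl annotation in CLC Genomics Workbench, and deposited TPM for 43622 genes, each library summing to 1000000. TPM keeps no depth, so the reads behind a value are unknown. The authors ran DESeq2 on read counts for their own comparisons, which were not used.

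Here log2(TPM + 0.1) of 19932 genes averaging 0.1 TPM or more was fitted with limma 3.58.1 in R 4.3.3 (eBayes with trend), each comparison on its 6 libraries and the interaction, (Both − shARF) − (MLN − Ctrl), on 12. Benjamini-Hochberg adjustment covered all genes tested, and a call was an adjusted p below 0.05. Fits were tested on simulated data. The members, gene lists and tests were chosen with earlier results of these data known. Named genes were all members, the first 4 of each list, CDKN2A and the 3 genes most like MYC, MXD1, MXD3 and MAX; others are marked. Likeness used genes averaging 1 TPM or more. Coordinates and exon overlaps are from GENCODE on GRCh38, another release than the authors' annotation. Strandedness and read layout are not given in the sources used here. A marker list is not reported here.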

Additional observations from a re-analysis of the deposited data

Results flagged for a closer look

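The response of MAX to MLN4924 differed between hairpin and other PC3 cells by the interaction term, −0.35 on the log2 scale (limma adjusted p = 0.0176), with mean levels of 110 TPM for Ctrl, 160 for MLN, 106 for shARF and 120 for Both. The response of MXD3 differed by −0.77 (limma adjusted p = 0.015), with mean levels of 4.09, 8.35, 3.77 and 4.45 TPM in the same order. The part of the exon overlaps described above, of MAX with FNTB and of MXD3 with RAB24 and PRELID1, was not tested. With 3 libraries per condition, single libraries were not tested as outliers.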

How the results depend on the processing

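Over 45 combinations of member and comparison, 657 alternatives (pseudocounts of 1 and 0.01, a filter at 1 TPM or none, median-of-ratios scaling, no trend, 12 libraries in one fit, a replicate block, each library left out) kept direction and side of the threshold in 607, lost the call in 36, gained it in 14 and reversed in 0. Without single libraries, the members called were 5 in every fit of MLN vs Ctrl, against 6 with all libraries. They ranged from 4 to 6 in Both vs shARF and from 5 to 6 in Both vs MLN. In shARF vs Ctrl and for the interaction they ranged from 2 to 4, with the highest in each without Ctrl replicate 1. Of 28 list counts, 21 stayed within 1.5 times the count with all libraries. Among these, turnover in Both vs shARF was 8 to 10 against 11, and MYC-activated genes in shARF vs Ctrl 19 to 21 against 22. The other list counts ranged from 0 to 1 for MYC locus RNAs in MLN vs Ctrl, 3 to 5 for other network genes in Both vs shARF and 5 to 7 for turnover in shARF vs Ctrl. In Both vs MLN they ranged from 0 to 2 for other network genes, 3 to 7 for cofactors, 2 to 4 for turnover and 2 to 6 for MYC-activated genes. Median-of-ratios scaling gave 11 cofactors, 12 MYC-activated genes and 2 MondoA and MLX targets called in Both vs MLN. All genes called there were 7124, against 6464 with TPM. Without MNT the repressor ratio was 0.122 for Ctrl, 0.765 for MLN, 0.0847 for shARF and 0.484 for Both.

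The numbers in the column names did not pair the libraries: deviations from the condition means correlated between −0.046 and 0.022 for the 10 same-numbered pairs and between −0.046 and 0.041 for the 44 others. With the replicate block in limma, 2 members (MYC and MXD1) were called in MLN vs Ctrl, 0 in shARF vs Ctrl (2 at an unadjusted p below 0.05, and 0 of all genes adjusted) and 1 (MXD3) for the interaction, where the MAX value was −0.16 (adjusted p = 0.273). No block could be fitted for Both vs shARF and Both vs MLN, which share fewer than 2 numbers. The block estimates more terms from the same libraries. Over all genes it left 5708 called in MLN vs Ctrl and 3105 for the interaction, against 12283 and 5645 without it. The cause of these changes was not tested. Depth is unknown, so counting error of low genes such as MYCL and MXD3 could not be given.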
